A study of Mus musculus with 6 samples.

Results

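The circadian clock genes of the mouse liver were followed here through 10 members: the activators Clock, Npas2 and Arntl (which encodes BMAL1), the repressors Per1, Per2, Cry1 and Cry2, the nuclear receptors Nr1d1 and Nr1d2 (REV-ERBα and REV-ERBβ), and Dbp, an output factor of the PAR bZIP family. Members were taken by symbol, and all 10 were found among the 55802 rows of the deposited count table. All 10 passed the filter on low counts and stand among the 15579 genes tested. The samples were livers of wild-type C57BL/6 mice, 3 of mice given CCl4 (carbon tetrachloride, a solvent that hepatocytes turn into a reactive radical and that is used to injure the rodent liver, here as a model of fibrosis by the series title) and 3 of mice given oil as control. The sources used here state no dose, length of treatment, age, sex or hour of tissue collection, and nothing says that libraries sharing a group are from different mice. A p-value here thus weighs only the library-to-library spread, which may be technical.

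The clock is a feedback loop of transcription that runs in nearly every cell. CLOCK, or its relative NPAS2, pairs with BMAL1 and binds E-box sequences in the genes of the PER and CRY proteins, which return to the nucleus and repress their own activators. The same pair drives the REV-ERBs, which compete with the ROR receptors at RRE sequences and repress Arntl, and drives Dbp, which acts on outputs through D-box sequences. In liver most of these transcripts rise and fall over the day, Dbp, Nr1d1 and the Per genes steeply and Clock little. With no hour of collection given, a difference between the groups in the time of day cannot be told apart from an effect of CCl4, and fewer cells of a type cannot be told apart from less RNA per cell.

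The sequences that this loop acts on are shown first, where the members' windows hold them. RefSeq promoter windows on GRCm38.p6, from 250 bases before to 50 after a transcript start, were found for 9 of the 10 members, all but Per2. The motifs were searched on both strands and did not overlap each other. The E-box CACGTG stood in a window of 2 of the 9 members (Per1, Cry1), against 8.09% of the 27025 genes with windows, and the E′-box CACGTT in 3 of the 9 (Cry1, Cry2, Nr1d1), against 5.44%. The RRE letters TAGGTCA stood in 1 of the 9 (Arntl), against 2.97%, and the D-box TTATGTAA in 0 of the 9, against 1.11%. No window of Clock, Npas2, Nr1d2 or Dbp held any of the 4 motifs, which says only that these letters are not there. Each site is printed with the gene's strand from 5′ to 3′ and the motif in capitals, and an AACGTG is CACGTT on the other strand.
Arntl RRE, chr7:113207532-113207556, plus strand: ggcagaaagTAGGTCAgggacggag
Per1 E-box, chr11:69098774-69098797, plus strand: acccaagtcCACGTGcagggatgt
Cry1 E-box, chr10:85185100-85185123, minus strand: gccggtggtCACGTGgggtgcatg
Cry1 E′-box, chr10:85185119-85185142, minus strand: cacttcagaAACGTGaggtgccgg
Cry2 E′-box, chr2:92434221-92434244, minus strand: catggtgggAACGTGagggggcgg
Nr1d1 E′-box, chr11:98775391-98775414, minus strand: acagatctcAACGTGccggctgct

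Of the 10 clock genes, 4 were called lower in the CCl4 livers and 0 higher by edgeR's quasi-likelihood test at a Benjamini-Hochberg adjusted p under 0.05. The genes called lower were Nr1d1, Nr1d2, Cry2 and Clock. Over all genes tested, 20.1% were called lower, 21.2% higher and 41.3% in either direction, so the clock genes were called about as often as genes in general. The balance of calls over all genes moved with the scaling, to 4103 higher and 2177 lower with upper quartile scaling and 4824 higher and 1676 lower with library size alone, against 3303 and 3124 with TMM, and the same 4 clock genes were lower with each. At an unadjusted p under 0.05 the same test gave 1 clock gene higher, Npas2, and DESeq2 called that gene too (adjusted p = 0.0170), while limma-voom called 0 higher. The groups did not overlap in 4 of the 10 members, against 54% of all genes. The median log2 fold change of the members was -0.26, against 0.00056 over all genes tested. With a required fold of at least 1.5 (glmTreat), 1 of the 10 kept a call, Nr1d1.

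**Figure D1:**
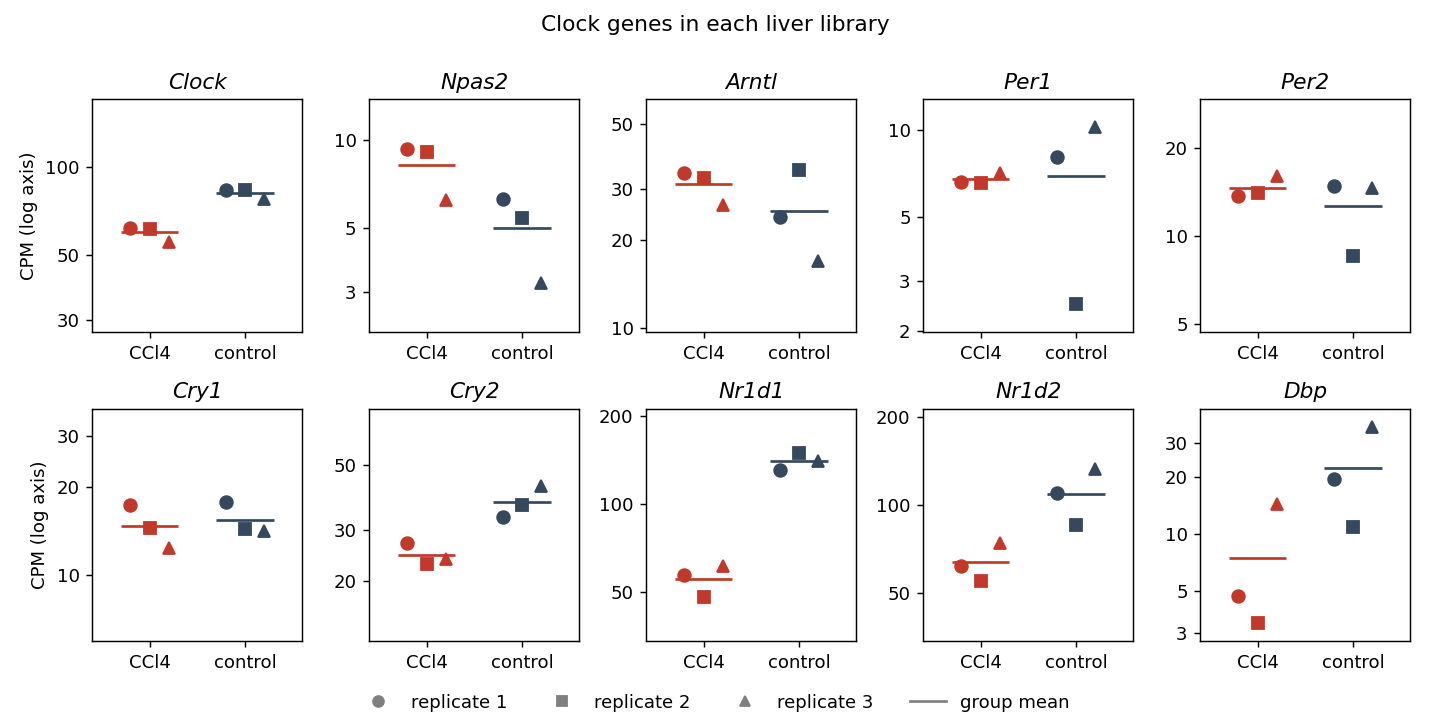
CPM (log axis) of the 10 clock genes in each library, CCl4 on the left and control on the right, with the marker shape giving the replicate number and the line the group mean. Clock, Cry2, Nr1d1 and Nr1d2 have groups that do not overlap, while Dbp spans 3.41 to 14.4 CPM within the CCl4 group and 10.9 to 36.5 within the controls.

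Both REV-ERB genes fell. Nr1d1 (ENSMUSG00000020889), the nuclear receptor that represses Arntl, stood at 56.8, 47.9 and 61.2 CPM (counts per 1000000, on libraries scaled by TMM) in the CCl4 livers and at 130, 149 and 140 CPM in the controls. All 3 CCl4 libraries lay below every control library, and the highest CCl4 value was under the lowest control value by a wide margin. The group means were 55.3 ± 6.74 CPM in CCl4 livers and 140 ± 9.51 CPM in controls (SD, n = 3 each). The log2 fold change was -1.34 (SE 0.09, edgeR adjusted p = 1.44e-05), or 2.52-fold lower (95% interval 2.18 to 2.91). It was called in all 15 alternatives tried, at -1.41 to -1.19. Exons of Nr1d1 overlap those of Thra on the other strand, over 8.55% of its exon length in GENCODE M21, and the sources used here do not state whether counting used strand. Thra, a thyroid hormone receptor, stood at 19.0, 18.7 and 21.0 CPM in CCl4 livers and 21.7, 26.0 and 19.2 CPM in controls, overlapping groups without a call (adjusted p = 0.197).

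Nr1d2 (ENSMUSG00000021775), which encodes the related REV-ERBβ, stood at 61.9, 54.8 and 73.8 CPM in CCl4 livers and at 110, 85.2 and 133 CPM in controls. The groups did not overlap, but the controls spread more widely than those of Nr1d1. Its log2 fold change was -0.78 (SE 0.19, 95% interval -1.26 to -0.30, edgeR adjusted p = 0.0225). Nr1d2 missed the threshold when CCl4 replicate 1 (adjusted p = 0.0766), CCl4 replicate 2 (0.0546) or control replicate 1 (0.0541) was left out, and with no filter on low counts (0.0823), all with the same direction. The count ratio of Nr1d1 to Nr1d2 within a library, which no scaling can change, was 0.916, 0.875 and 0.828 in CCl4 livers and 1.18, 1.75 and 1.05 in controls. Nr1d1 thus had more counts than Nr1d2 in each control library and fewer in each CCl4 library. The exons of Nr1d1 span 3.08 kb and those of Nr1d2 5.41 kb. Per kilobase of exon, the mean of Nr1d1 was the higher in both groups. It was 18.0 against 11.7 CPM per kb in CCl4 livers and 45.3 against 20.2 in controls. The upstream parts of both windows are printed in full, since these were the members with the lowest called log2 fold changes. Capitals mark the E′-box, and none of the motifs searched lies in the Nr1d2 stretch.
Nr1d1, GRCm38.p6 chr11:98775378-98775627, minus strand: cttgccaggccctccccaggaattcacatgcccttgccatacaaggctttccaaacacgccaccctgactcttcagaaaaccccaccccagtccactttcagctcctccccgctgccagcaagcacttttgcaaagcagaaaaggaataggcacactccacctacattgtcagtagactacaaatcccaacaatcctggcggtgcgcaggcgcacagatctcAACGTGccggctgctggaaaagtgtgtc
Nr1d2, GRCm38.p6 chr14:18239107-18239356, minus strand: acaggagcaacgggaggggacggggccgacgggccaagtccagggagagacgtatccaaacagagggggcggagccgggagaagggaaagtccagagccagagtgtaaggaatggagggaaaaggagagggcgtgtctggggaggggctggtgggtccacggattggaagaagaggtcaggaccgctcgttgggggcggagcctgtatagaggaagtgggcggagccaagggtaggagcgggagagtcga

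Among the activators, Clock fell while Npas2 and Arntl did not pass the test. Clock (ENSMUSG00000029238), the partner of BMAL1 in most tissues, stood at 62.0, 61.3 and 55.5 CPM in CCl4 livers and at 83.4, 83.2 and 77.8 CPM in controls. The libraries of each group lay close together and the groups did not overlap. Its log2 fold change was -0.45 (SE 0.06, 95% interval -0.59 to -0.31, edgeR adjusted p = 3.98e-04). Npas2 (ENSMUSG00000026077), which can take the place of CLOCK, stood at 9.32, 9.10 and 6.24 CPM in CCl4 livers and at 6.28, 5.40 and 3.23 CPM in controls. The groups met at CCl4 replicate 3 and control replicate 1. Its log2 fold change was 0.72 (SE 0.25, 95% interval 0.13 to 1.32, adjusted p = 0.0538). Npas2 was called higher without CCl4 replicate 3 (0.89, adjusted p = 0.0156) or control replicate 1 (0.92, adjusted p = 0.0367). It was also called with upper quartile scaling (0.81, adjusted p = 0.0400) and with library size alone (0.87, adjusted p = 0.0240), settings that moved the median of all genes to 0.09 and 0.15. The count ratio of Clock to Npas2 was 6.65, 6.74 and 8.90 in CCl4 livers and 13.3, 15.4 and 24.1 in controls, without overlap. Its numerator Clock was itself lower, so the ratio says nothing of Npas2 alone.

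Arntl (ENSMUSG00000055116) stood at 34.0, 32.7 and 26.4 CPM in CCl4 livers and at 24.0, 34.6 and 17.0 CPM in controls. Control replicate 2 lay above every CCl4 library and the other controls below, so the groups overlapped. The log2 fold change was 0.30 (SE 0.28, 95% interval -0.40 to 1.00, edgeR adjusted p = 0.439). Without control replicate 2 it was called higher (0.59, adjusted p = 0.0449), and without control replicate 3 it stood at 0.08. Arntl carries the RRE printed above, the kind of sequence that REV-ERBs bind. The count ratio of Arntl to Nr1d1 was 0.599, 0.682 and 0.431 in CCl4 livers and 0.185, 0.233 and 0.121 in controls. The groups of this ratio did not overlap, but its denominator Nr1d1 was itself lower, so the ratio says nothing of Arntl alone.

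**Figure D2:**
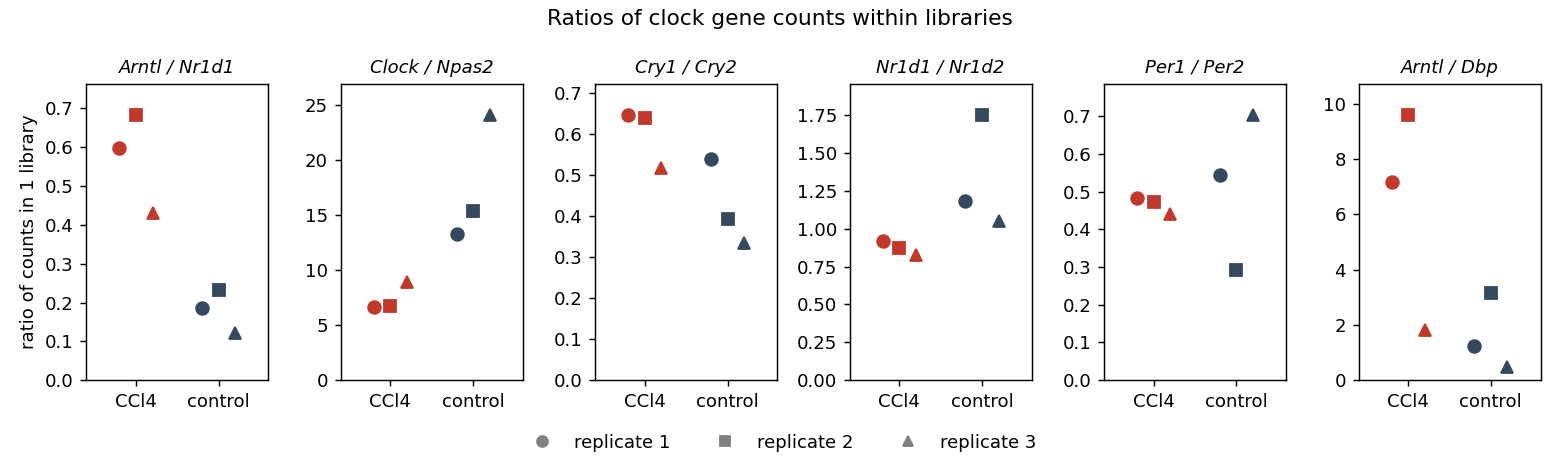
Ratio of the counts of 2 clock genes within each library, CCl4 on the left and control on the right, on linear axes from 0. The ratios Arntl to Nr1d1, Clock to Npas2 and Nr1d1 to Nr1d2 do not overlap between the groups, whereas Cry1 to Cry2, Per1 to Per2 and Arntl to Dbp do.

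Of the cryptochromes, which block the activators, Cry2 fell and Cry1 was not called. Cry2 (ENSMUSG00000068742) stood at 27.0, 22.8 and 23.9 CPM in CCl4 livers and at 33.2, 36.5 and 42.4 CPM in controls, without overlap. Its log2 fold change was -0.61 (SE 0.10, 95% interval -0.83 to -0.38, edgeR adjusted p = 0.00123). Its exons overlap those of D930015M05Rik on the other strand over 4.67% of their length; that gene was also lower, at 0.958, 0.791 and 0.884 CPM in CCl4 livers and 1.01, 2.32 and 1.80 CPM in controls (adjusted p = 0.0397). Cry1 (ENSMUSG00000020038) stood at 17.4, 14.5 and 12.3 CPM in CCl4 livers and at 17.8, 14.3 and 14.2 CPM in controls. The groups overlapped over most of their range, with a log2 fold change of -0.07 (SE 0.14, 95% interval -0.38 to 0.25, adjusted p = 0.738). The ratio of Cry1 to Cry2 counts was 0.645, 0.638 and 0.516 in CCl4 livers and 0.538, 0.392 and 0.334 in controls, where only CCl4 replicate 3 fell below control replicate 1.

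The period genes differed more among the controls than between the groups. Per1 (ENSMUSG00000020893), a repressor that also answers quickly to hormones and other signals, stood at 6.60, 6.58 and 7.07 CPM in CCl4 livers and at 8.04, 2.49 and 10.2 CPM in controls. The CCl4 libraries lay together, within the span of the controls, whose highest value was 4.12 times their lowest. The log2 fold change was -0.04 (SE 0.48, 95% interval -1.26 to 1.18, edgeR adjusted p = 0.961), and without control replicate 2 Per1 was called lower (-0.44, adjusted p = 0.0383). Per2 (ENSMUSG00000055866), its close relative, stood at 13.7, 13.9 and 16.0 CPM in CCl4 livers and at 14.8, 8.54 and 14.6 CPM in controls. Control replicate 2 again lay below all the others, and the log2 fold change was 0.20 (SE 0.20, 95% interval -0.27 to 0.68, adjusted p = 0.460). It was -0.02 without that library. The ratio of Per1 to Per2 counts stayed between 0.442 and 0.482 in CCl4 livers and ran from 0.291 to 0.702 in controls.

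Dbp (ENSMUSG00000059824) had both the lowest log2 fold change of the members and the widest spread. It stood at 4.74, 3.41 and 14.4 CPM in CCl4 livers, from 94, 69 and 293 counts, and at 19.5, 10.9 and 36.5 CPM in controls, from 366, 202 and 689 counts. CCl4 replicates 1 and 2 lay below every control, but CCl4 replicate 3 lay above control replicate 2. The log2 fold change was -1.57 (SE 0.76, 95% interval -3.61 to 0.47, edgeR adjusted p = 0.178), and Dbp was not called. It was -2.45 without CCl4 replicate 3 (adjusted p = 0.0945) and -1.02 without control replicate 3 (0.380). Exons of Dbp overlap those of Sphk2 on the other strand, over 18% of the exon length of Dbp. Sphk2, a sphingosine kinase, was itself lower, at 47.5, 45.8 and 40.6 CPM in CCl4 livers and 65.6, 67.6 and 67.6 CPM in controls (log2 fold change -0.58, adjusted p = 1.42e-04). Without a known strand setting, reads of the shared stretch cannot be told apart.

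**Figure D3:**
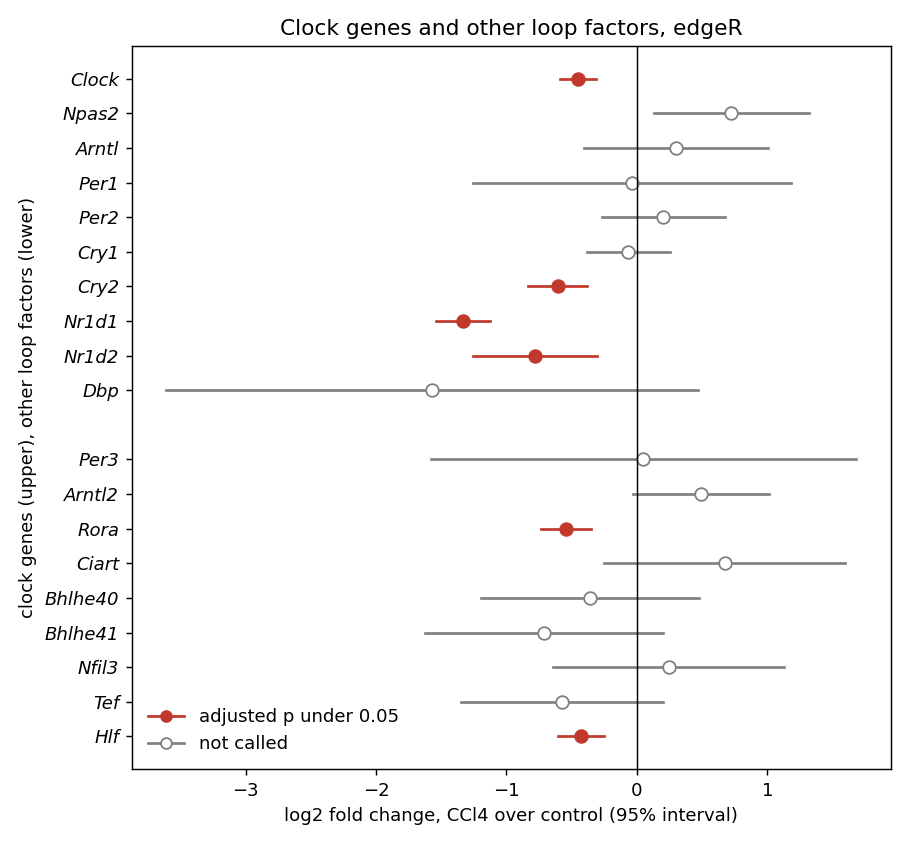
Log2 fold change (CCl4 over control) with its 95% interval for the 10 clock genes (upper) and 9 other loop factors (lower), filled where the adjusted p was under 0.05. Nr1d1 lies at -1.34 with a narrow interval, while the intervals of Dbp, Per1 and Per3 are the widest and contain 0.

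The spread within groups set the members apart from each other. The pooled SD of log2 CPM within groups was 0.975 for Dbp and 0.756 for Per1, at the 99.6 and 98.6 percentiles of the genes tested. It was 0.414 for Npas2, 0.388 for Arntl, 0.328 for Per2, 0.274 for Nr1d2 and 0.219 for Cry1. The lowest values were those of Cry2 (0.154), Nr1d1 (0.145) and Clock (0.0737), and the median over all genes was 0.141. Clock, Nr1d1 and Cry2 also kept their calls whichever library was left out.

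The order of the libraries within a group differed from member to member. Among the controls, replicate 2 was the lowest and replicate 3 the highest for Dbp, Per1 and Nr1d2, an order held by 19.3% of all genes tested. Arntl ran from 34.6 CPM in control replicate 2 to 17.0 CPM in control replicate 3, with replicate 1 between them. Clock, Npas2 and Cry1 were highest in control replicate 1 and lowest in control replicate 3, Per2 was highest in replicate 1 and lowest in replicate 2, Nr1d1 was highest in replicate 2 and lowest in replicate 1, and Cry2 was highest in replicate 3 and lowest in replicate 1. Control replicate 3 was thus the highest for 4 of the 10 members, against 34.3% of all genes, and control replicate 2 the lowest for 4, against 34.6%. Among the CCl4 livers, replicate 3 was the highest for Dbp, Nr1d1, Nr1d2, Per1 and Per2, and the lowest for Clock, Npas2, Arntl and Cry1. Over all genes tested, CCl4 replicate 3 was the highest of its group in 38.8% and the lowest in 38.2%, so it stood apart from replicates 1 and 2 in general. Clock, Npas2 and Cry1 ran from replicate 1 down to replicate 3 in both groups. Dbp, Per1 and Nr1d2 ran in the order 3, 1, 2 in both groups. Arntl, Per2, Cry2 and Nr1d1 differed in order between the groups. The first order was held by 20.2% of all genes tested in CCl4 livers and 15.7% in controls, the second by 18.7% and 19.3%. The share of all genes with the same order in both groups was not worked out. Some of these orders rest on near ties. Per1 stood at 6.60 and 6.58 CPM in CCl4 replicates 1 and 2, from 131 and 133 counts. Clock stood at 83.4 and 83.2 CPM in control replicates 1 and 2. The count ratio of Arntl to Dbp ran from 1.83 to 9.58 in CCl4 livers and from 0.464 to 3.17 in controls, lowest in replicate 3 of either group. The part of collection time, or of any other difference between these libraries, in this order was not tested.

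**Figure D4:**
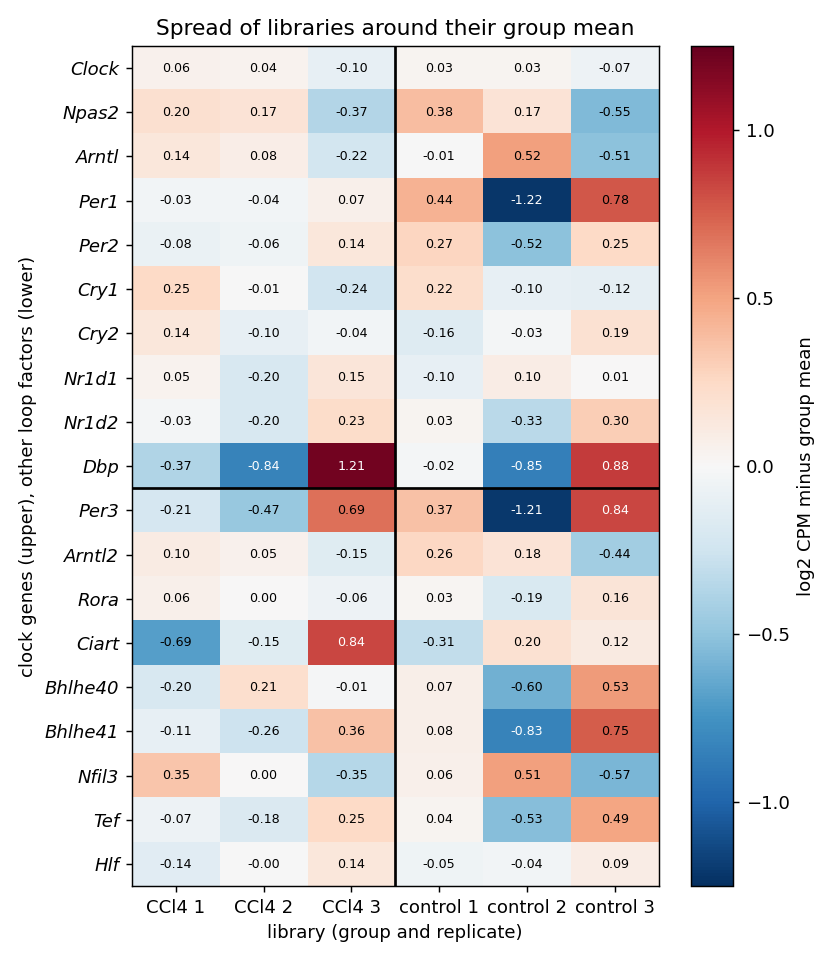
Log2 CPM of each gene minus the mean of its group, for the 10 clock genes (upper) and 9 other loop factors (lower), in the 3 CCl4 libraries on the left and the 3 control libraries on the right; red is above and blue below the group mean. Dbp, Per1, Per3 and Tef are below the mean in control replicate 2 and above it in control replicate 3, while Arntl and Nfil3 show the opposite.

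Levels were compared between genes per kilobase of exon in GENCODE M21. In the CCl4 livers the order was Nr1d1 (18.0 ± 2.19 CPM per kb), Nr1d2 (11.7 ± 1.78), Cry1 (4.42 ± 0.759), Clock (4.34 ± 0.260), Arntl (4.12 ± 0.543), Cry2 (3.88 ± 0.342), Dbp (2.51 ± 2.00), Per2 (2.49 ± 0.217), Npas2 (1.72 ± 0.359) and Per1 (1.20 ± 0.0497). In the controls it was Nr1d1 (45.3 ± 3.09 CPM per kb), Nr1d2 (20.2 ± 4.40), Dbp (7.45 ± 4.36), Clock (5.93 ± 0.230), Cry2 (5.91 ± 0.740), Cry1 (4.62 ± 0.622), Arntl (3.35 ± 1.18), Per2 (2.16 ± 0.607), Per1 (1.23 ± 0.709) and Npas2 (1.04 ± 0.328), each as mean ± SD of 3 libraries. The REV-ERBs led in both groups. From Cry1 down to Per2 in the CCl4 livers, and from Dbp to Cry2 and from Per1 to Npas2 in the controls, neighbours lay within 1 SD of each other.

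The other factors of the loop were mostly not called. Of 11 listed, 10 were tested, and 2 were lower and 0 higher by edgeR, Rora and Hlf, at a median log2 fold change of -0.16; Rorb was under the filter. At an unadjusted p under 0.05 the counts were also 2 lower and 0 higher. Rora, a ROR receptor that activates through the same RRE that REV-ERBs occupy, stood at 90.0, 86.6 and 82.9 CPM in CCl4 livers and at 128, 110 and 140 CPM in controls (log2 fold change -0.54, adjusted p = 9.45e-04). Hlf, a PAR bZIP relative of Dbp, stood at 34.5, 38.0 and 42.1 CPM in CCl4 livers and at 49.6, 50.2 and 54.7 CPM in controls (-0.43, adjusted p = 0.00205). Neither gene had overlapping groups.

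Tef, the remaining PAR bZIP factor, followed Dbp across libraries. It stood at 68.2, 62.9 and 85.1 CPM in CCl4 livers and at 106, 71.3 and 145 CPM in controls (log2 fold change -0.57, adjusted p = 0.193). Its groups overlapped through control replicate 2, without which it was called lower (-0.80, adjusted p = 0.0249). Nfil3, which represses at the D-box that the PAR bZIP factors activate, stood at 52.8, 41.4 and 32.4 CPM in CCl4 livers and at 35.6, 48.6 and 22.8 CPM in controls (0.24, adjusted p = 0.614), with the libraries of each group in the same order as for Arntl. Per3, a further period gene, stood at 9.68, 8.06 and 18.1 CPM in CCl4 livers and at 12.7, 4.21 and 17.7 CPM in controls (0.05, adjusted p = 0.959). Ciart, a repressor of the CLOCK and BMAL1 pair, had a log2 fold change of 0.67 (adjusted p = 0.219). That of Bhlhe40, another E-box repressor, was -0.36 (adjusted p = 0.428), and -0.61 (adjusted p = 0.0466) without control replicate 2. Of these other factors 9 had windows, and 3 of the 9 held an E-box, 1 an E′-box, 1 a D-box and 1 an RRE, beside the shares of all genes given above. The matches in Tef, Per3 and Nfil3, whose values are given here, are printed in the same way as those of the members.
Tef E-box, chr15:81802537-81802560, plus strand: ctgtggctcCACGTGctgcagctg
Tef E-box, window of another start, chr15:81811267-81811290, plus strand: ctggcccagCACGTGtctacatcg
Per3 D-box, chr4:151044854-151044879, minus strand: acccgcgcgTTATGTAAggtactcgg
Per3 D-box, chr4:151044807-151044832, minus strand: cgcccgcggTTATGTAAcccccgccg
Nfil3 RRE, read on the other strand as TAGGTCA, chr13:52981036-52981060, minus strand: gctcggaacTGACCTActaacacac

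Genes known as rhythmic outputs of the liver clock were called in both directions. Of 13, all tested, 5 were higher and 5 lower, with a median log2 fold change of -0.25. That is 76.9% called, against 41.3% of all genes, in a list chosen with earlier results of these data known. Elovl3, a fatty acid elongase, stood at 7.06, 10.7 and 4.62 CPM in CCl4 livers and at 585, 586 and 546 CPM in controls, a log2 fold change of -6.26 (SE 0.31, edgeR adjusted p = 8.17e-05). The groups lay far apart, and no other gene of the 5 clock lists differed as much. Also lower were Rgs16, a regulator of G protein signalling (-1.81, adjusted p = 2.49e-05), the fatty acid receptor Ppara (-1.27), the xenobiotic receptor Nr1i3 (-0.96) and the uridine phosphorylase Upp2 (-0.81). Higher were the bile acid enzyme Cyp7a1, the deadenylase-like Noct (1.28, adjusted p = 7.20e-05), the haem synthesis enzyme Alas1 (1.20, adjusted p = 8.88e-04), the cell cycle kinase Wee1 (0.56) and the P450 reductase Por (0.35). Noct stood at 8.22, 8.11 and 9.19 CPM in CCl4 livers and at 3.83, 3.40 and 3.29 CPM in controls, without overlap. Cyp7a1 (1.86, adjusted p = 0.0338) lost its call when any library other than control replicate 2 was left out (adjusted p 0.0674 to 0.102), and also with no filter on low counts (0.0694).

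Enzymes that modify or degrade clock proteins changed by less. Of 14, all tested, 3 were higher and 4 lower, with a median log2 fold change of -0.04. Higher were the deubiquitinase Usp2 (1.16, edgeR adjusted p = 0.0124), Timeless (0.55, adjusted p = 0.00451), which also acts at replication forks, and the kinase Csnk1e (0.41, adjusted p = 0.0313). Usp2 stood at 3.63, 3.41 and 5.90 CPM in CCl4 livers and at 1.86, 1.30 and 2.60 CPM in controls, and it missed the threshold with control replicate 1 left out (adjusted p = 0.0526). Csnk1e lost its call without any 1 library other than CCl4 replicate 2 (adjusted p 0.0567 to 0.0971). Among those lower were the kinase subunit genes Prkaa2 (-0.49) and Csnk2a1 (-0.35) and the deacetylase Sirt1 (-0.43). Csnk1d, the other casein kinase of the PER proteins, stood at 75.6 ± 1.22 CPM in CCl4 livers and 75.4 ± 0.528 CPM in controls (SD, n = 3 each).

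Of 11 genes tied to hormone and temperature signals, some of them targets of those signals, 10 were tested. Of these, 3 were higher and 1 lower, with a median log2 fold change of 0.27, and Hspa1a was under the filter. The glucocorticoid targets Sgk1 (1.16, edgeR adjusted p = 1.78e-04) and Fkbp5 (0.68, adjusted p = 0.0194) and the cold-induced Rbm3 (0.53, adjusted p = 4.75e-04) were higher, and the glucocorticoid receptor gene Nr3c1 (-0.39, adjusted p = 0.00199) was lower. Of the same kinds, the glucocorticoid target Tsc22d3 (0.26, adjusted p = 0.104) and the cold-induced Cirbp (-0.15, adjusted p = 0.134) were not called. Sgk1 stood at 43.5, 46.5 and 33.2 CPM in CCl4 livers and at 17.7, 18.6 and 19.0 CPM in controls, without overlap. Fkbp5 lost its call without CCl4 replicate 1, CCl4 replicate 3 or control replicate 3 (adjusted p 0.0546 to 0.0722). Over these 4 further lists together, 11 of the 47 genes tested were higher and 12 lower. The lists differed in the share called, against 41.3% of all genes. It was 20% for loop factors, 50% for turnover genes, 76.9% for rhythmic outputs and 40% for hormone and temperature genes. The count of higher genes was 7 without CCl4 replicate 1, control replicate 1 or control replicate 3, and 6 without CCl4 replicate 3.

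The genes whose levels followed Dbp most closely over the 6 libraries were Polb, Eif2ak4, Gtpbp6, Rnf115 and Lrp3, with Pearson correlations of log2 CPM of 0.987 to 0.994. Among those closest to Arntl were Abcf3, Plk2, Ttc1 and Tor3a, at 0.977 to 0.999. These are among the highest of 12264 genes over only 6 libraries, which share their depth and their groups. The size of the changes differed among these genes. Polb ran from 14.1 to 15.8 CPM in CCl4 livers and from 15.7 to 17.1 CPM in controls. Plk2 ran from 20.1 to 23.2 CPM in CCl4 livers and from 14.4 to 24.4 CPM in controls.

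The libraries held 18929972 to 20042731 counts each. The counts of called markers below stand beside 21.2% of all genes tested called higher and 20.1% lower. Hepatocyte markers (Alb, Apoa1, Ttr, Tat, Hnf4a) summed to 84279 to 87696 CPM in CCl4 livers and 81089 to 88243 CPM in controls, with 1 of 5 called higher and 1 lower. Most of that sum was Alb, at a mean of 73971 CPM in CCl4 livers and 71800 CPM in controls. Ttr was called higher (log2 fold change 0.24) and Tat lower (-0.27). Apoa1 (-0.37, edgeR adjusted p = 0.0775) and Hnf4a (-0.19, adjusted p = 0.0517) also lay lower without overlap, but were not called. Macrophage markers were higher in 5 of 5 (summed 566 to 639 CPM in CCl4 livers, 159 to 205 CPM in controls), stellate and myofibroblast markers in 5 of 6 (623 to 665 and 95.2 to 134 CPM), cholangiocyte markers in 3 of 4 (28.1 to 30.5 and 8.48 to 17.3 CPM) and cycling cell markers in 4 of 4 (67.0 to 142 and 9.12 to 12.3 CPM). Of Kupffer cell markers 2 of 4 were higher and 1 lower (367 to 408 and 212 to 262 CPM), of endothelial markers 1 of 5 was lower (194 to 213 and 207 to 217 CPM), and of T and B cell markers 0 of 4 were called by edgeR and 1, Cd3e, was lower at an unadjusted p under 0.05 (6.73 to 7.52 and 5.99 to 6.76 CPM). The clock runs in all these cell types, and the part of the change in cell makeup in the values of the clock genes was not tested.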

How the data were processed

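The authors deposited 1 table of raw counts per gene, whole numbers for all 6 libraries, made from total liver RNA. Per the series' design text and the submitters' processing notes, filtered reads were aligned with HISAT2 and counted with featureCounts; their versions, the build, the annotation and any use of strand are not stated in those sources. Columns were matched to samples by title. Symbols came from GENCODE M21 by Ensembl identifier (52083 of 55359 matched), exon lengths and overlaps from the same annotation, and promoter windows from RefSeq (GRCm38.p6).

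The test was edgeR 4.0.16 under R 4.3.3 (filterByExpr, TMM, glmQLFit with robust estimation, glmQLFTest), with p-values adjusted by Benjamini-Hochberg over 15579 genes. It was also run on simulated data, with an outcome not reported here. Few genes were changed in those data, so that run could not check the scaling where many genes differ. Each SE was taken from the log2 fold change and its F statistic. Alternatives used other scalings, other filters, glmTreat, DESeq2 1.42.0, limma-voom (limma 3.58.1), a replicate block and each library left out. No 2 libraries within a group agreed within sampling noise (mean chi-square over genes 5.71 to 25.8). Every interval rests on 3 libraries a group, and low counts (Dbp, Per1, Npas2) also carry counting error.

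The members and lists were chosen with earlier results of these data known. Named, apart from a few items not reported here, were all 10 members, the loop factors described, the 3 called genes of largest change per direction in each further list, and the 5 genes most like Dbp and Arntl; Wee1, Por, Nr1i3, Upp2, Csnk1d, Cd3e, Tsc22d3, Cirbp, Thra, Sphk2 and D930015M05Rik were added after their values were seen. The E′-box was added to the motifs after the windows were seen.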

Additional observations from a re-analysis of the deposited data

How the results depend on the processing

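The 10 clock genes kept direction and side of the threshold in 123 of 150 alternative values. With the required fold of 1.5, the calls of Clock (-0.45), Cry2 (-0.61) and Nr1d2 (-0.78) were lost, as that test asks for a larger change, and counts fell to 1309 higher and 380 lower over all genes, 0 higher and 1 lower among clock genes, and 3 higher and 4 lower among the other clock pathway genes. With library size alone, 4824 genes were higher and 1676 lower. Clock genes called higher numbered 1, Npas2, with upper quartile scaling (0.81), library size alone (0.87) and DESeq2 (0.72). With no filter Nr1d2 was lost (-0.80), though calls over all genes came to 3446 higher and 3249 lower; the cause was not tested. Per1 changed sign with upper quartile scaling (0.053), library size alone (0.11) and limma-voom (0.19), and Cry1 with upper quartile scaling (0.0205) and library size alone (0.0781); neither was called in any of these.

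Leaving out 1 library, genes called over all ran from 2706 to 3305 higher and 2443 to 3103 lower, clock genes from 0 to 1 higher and 3 to 5 lower, and the other pathway genes from 6 to 9 higher and 12 to 17 lower. Log2 fold changes ran from 0.0764 to 0.59 for Arntl, 0.49 to 0.92 for Npas2, -0.44 to 0.35 for Per1, -0.0179 to 0.33 for Per2, -0.20 to 0.048 for Cry1, -0.94 to -0.62 for Nr1d2 and -2.45 to -1.02 for Dbp. Per3 changed sign without CCl4 replicate 3 (-0.38) or control replicate 2 (-0.35), and Nfil3, which ran from -0.0016 to 0.5247, without control replicate 3. The causes of these changes were not tested.

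The deviations of same-numbered libraries correlated over all genes tested at 0.0483, 0.004 and 0.0635, and the main test did not pair them. A correlation over all genes cannot decide whether a small set such as the clock genes was paired. The sample titles number the libraries of each group but do not say that equal numbers were paired. Each CCl4 library correlated best with the control of its own number. For CCl4 replicate 2 that was 0.004, against 0.0037 with control replicate 1. With the number as a replicate block, 3298 genes were higher and 3118 lower, clock genes numbered 1 higher and 5 lower, Npas2 (0.74, adjusted p = 0.00237) and Dbp (-1.65, adjusted p = 8.27e-05) being added, Tef was called lower (-0.53, adjusted p = 0.0149), Cyp7a1 lost its call (adjusted p = 0.0893), and Per1 changed sign (0.0728).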
